A study of Mus musculus with 4 samples.

Results

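The genes described here are 9 transcripts of mural cells, the smooth muscle cells and pericytes that wrap blood vessels, found by symbol among the 24062 genes of the deposited count table. All 9 were present and all 9 passed the expression filter of 1 CPM (counts scaled to a common library size) in at least 1 library, which kept 14700 genes. They comprise 5 contractile genes (Myh11, Acta2, Tagln, Cnn1 and Lmod1) and 4 surface or signalling genes (Pdgfrb, Rgs5, Cspg4 and Mcam). They were listed for their known cell type and not by their values in these libraries, but with earlier results of the same libraries known.

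RNA was sequenced from sciatic nerve of 4-month-old C57BL/6 mice, with 1 library for each of 4 genotypes. PKO-NF1 nerve was P2RY14-/- and carried floxed Nf1 alleles with Dhh Cre. NF1 nerve carried floxed Nf1 alleles and Dhh Cre with no P2ry14 allele named, and this library is labelled a repeat at 4 months. PKO nerve was P2RY14-/- only, and WT nerve is labelled C57BL/6, with neither the floxed alleles nor Dhh Cre named. Nf1 encodes neurofibromin, a brake on RAS, and P2ry14 encodes a receptor for UDP-sugars. Dhh Cre is active in the Schwann cell lineage, including endoneurial cells that arise from it, and whether mural cells of these nerves lost Nf1 was not tested. How many animals each library holds is not stated in the labels.

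Mural cells set vessel tone and stabilise endothelium. Smooth muscle of arterioles carries a contractile apparatus of smooth muscle myosin, actin and their regulators, whose genes are switched on by serum response factor (SRF) with myocardin-family cofactors at DNA elements called CArG boxes. Pericytes of capillaries carry little of that apparatus and are recruited by endothelial PDGF-B through its receptor PDGFR-beta. In peripheral nerve both cell types lie in endoneurial and epineurial vessels and form part of the blood-nerve barrier.

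Promoter sequence is shown for the contractile genes that were on the higher side in the P2RY14-/- libraries and for which a window was available, 250 bases upstream of the RefSeq transcript start on GRCm38.p6, written 5′ to 3′ along the gene. Windows of 6 of the 9 genes were matched by symbol. Capitals mark CArG-like matches (10 bases, CC and GG around 6 bases of which at most 1 is G or C) and MCAT elements (CATTCC or its reverse complement GGAATG), which bind TEAD factors. The windows are Acta2 (chr19:34255374-34255623, minus strand), Cnn1 (chr9:22099003-22099252, plus strand) and Lmod1 (chr1:135324563-135324812, plus strand).
Acta2: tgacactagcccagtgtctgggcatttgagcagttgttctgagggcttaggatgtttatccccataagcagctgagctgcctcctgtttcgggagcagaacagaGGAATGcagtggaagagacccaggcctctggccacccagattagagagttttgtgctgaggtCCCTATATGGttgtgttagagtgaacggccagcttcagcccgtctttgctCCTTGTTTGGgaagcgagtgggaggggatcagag
Cnn1: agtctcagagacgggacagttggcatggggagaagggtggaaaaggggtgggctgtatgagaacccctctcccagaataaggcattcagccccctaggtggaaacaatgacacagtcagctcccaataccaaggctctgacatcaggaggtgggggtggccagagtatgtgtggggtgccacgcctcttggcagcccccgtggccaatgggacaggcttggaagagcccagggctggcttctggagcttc
Lmod1: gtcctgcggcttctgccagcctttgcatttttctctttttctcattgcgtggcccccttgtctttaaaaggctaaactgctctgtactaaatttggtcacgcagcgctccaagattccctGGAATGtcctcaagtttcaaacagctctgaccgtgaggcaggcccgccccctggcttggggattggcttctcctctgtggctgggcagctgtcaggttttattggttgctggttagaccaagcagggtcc
The Acta2 window held 2 CArG-like matches, beginning 84 and 34 bases before the start, and 1 MCAT element, beginning 146 bases before it. Lmod1 held 1 MCAT element and no CArG-like match, and the Cnn1 window held neither motif. Cspg4, Mcam and Rgs5 windows also held neither. A CArG-like match was present in 8.59% of 32851 such windows over all genes, at least 2 in 0.67%, and an MCAT element in 12.6%. With no G or C allowed among the 6 inner bases, none of the 6 windows had a match, against 1.47% of all windows. The matches on Acta2 did not overlap one another.

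Library depth was between 14111201 and 20362685 counts, and a gene with no count could have had up to 3, which is between 0.152 and 0.183 CPM. Values below are TMM-scaled CPM (edgeR's trimmed-mean scaling). With 1 library per genotype there is no replicate, so each ratio compares 2 libraries, and its exact 95% interval covers counting error only. A gene is called higher or lower where the ratio is at least 2-fold and the interval excludes 1. P2ry14 itself was at 10.6 CPM in PKO-NF1 against 65.3 in NF1, and at 10.9 CPM in PKO against 37.6 in WT. Nf1 was at 63.4 CPM in NF1 against 72.8 in WT and at 20.5 CPM in PKO-NF1 against 41.0 in PKO, from gene totals that do not resolve the deleted exons. The NF1 library stood apart: 13 skeletal muscle markers took 5.80% of its counts, against 0.0266% in PKO-NF1, 0.0103% in PKO and 0.120% in WT. Ribosomal protein genes took 10.8% of counts in PKO-NF1, 6.60% in NF1, 14.2% in PKO and 3.54% in WT. The X-inactivation transcript Xist had 9 counts in PKO-NF1, 39699 in NF1, 4948 in PKO and 10304 in WT, and the Y-linked Ddx3y had 842, 0, 396 and 813 counts in the same 4 libraries, so sex and genotype cannot be told apart. Ratios between libraries also followed transcript length and GC content, and values with those trends subtracted are given beside many of the results.

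The contractile genes spanned a wide range of levels. Per kilobase of the longest transcript, Tagln, which encodes the actin-bundling protein transgelin, was the most abundant of the 9 in every library, at 394 CPM per kb in PKO-NF1, 202 in NF1, 376 in PKO and 170 in WT. Acta2, the smooth muscle alpha-actin, was at 52.6, 24.1, 60.5 and 41.3 CPM per kb in those libraries. Myh11, the smooth muscle myosin heavy chain and the most specific of the contractile markers, was at 2.48 CPM per kb in PKO-NF1, 1.37 in NF1, 9.09 in PKO and 4.83 in WT. Calponin 1, Cnn1, which restrains actomyosin, and leiomodin 1, Lmod1, which nucleates actin filaments, were at or below 4.32 CPM per kb in all 4 libraries. Among the surface genes, Mcam (CD146, a laminin-binding adhesion molecule that endothelium also carries) led with 36.4 to 66.5 CPM per kb. Pdgfrb, Cspg4 (the NG2 proteoglycan) and Rgs5 (a brake on G protein signalling in pericytes) lay between 10.6 and 19.1 CPM per kb.

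The order of levels differed between libraries. Acta2 stood above Mcam in PKO-NF1 and PKO and below it in NF1 and WT, with counting intervals that excluded equality each time. Rgs5 ranked above Pdgfrb in PKO-NF1 (1.26-fold, 1.15 to 1.38) and below Cspg4 in PKO and WT. Neighbours whose intervals did not exclude equality were Pdgfrb and Cspg4 in PKO-NF1, Rgs5 and Pdgfrb in NF1, Myh11 and Lmod1 in PKO-NF1 and in NF1, and Cnn1 and Lmod1 in WT. Cnn1 was the lowest of the 9 in NF1 and Lmod1 in the other libraries.

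**Figure D1:**
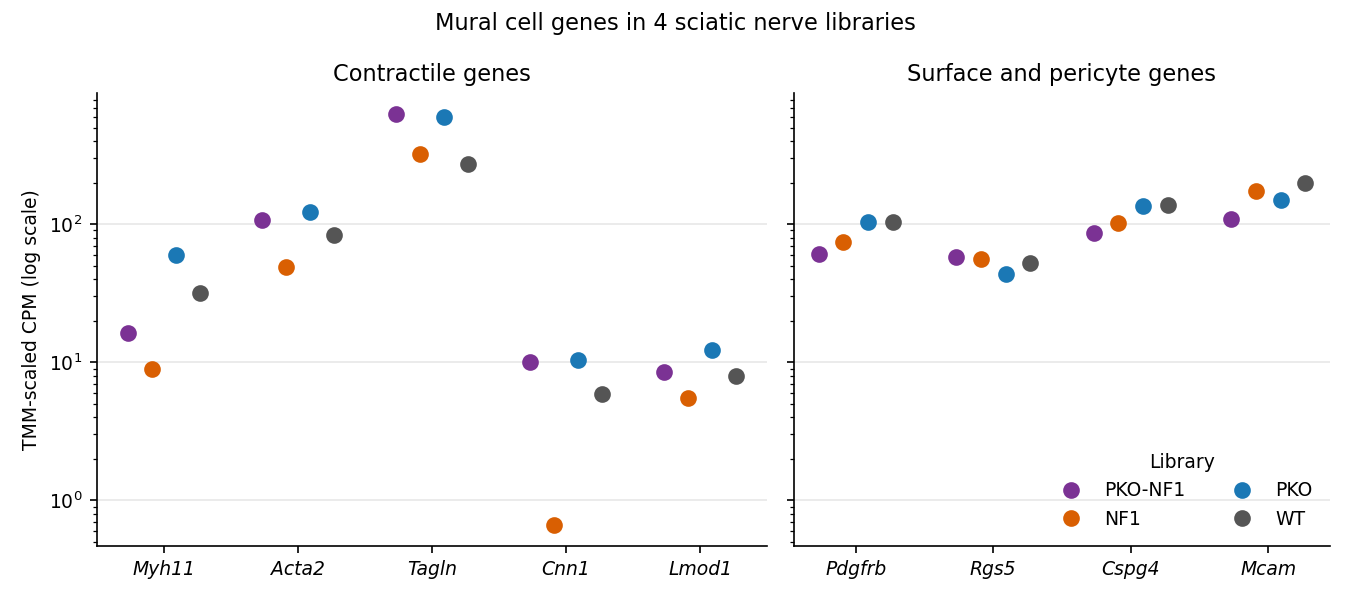
TMM-scaled CPM (log axis) of the 5 contractile genes and the 4 surface genes, 1 point per library in the order PKO-NF1, NF1, PKO, WT. As scaled, Myh11 is lowest in the 2 libraries with floxed Nf1, Cnn1 is lowest in NF1, at 0.660 CPM, and the 4 surface genes stay within 43.9 to 199 CPM.

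On the genome (GRCm38, GENCODE M21), Myh11 (ENSMUSG00000018830) lies on chromosome 16 from 14194535 to 14291372, minus strand, and Acta2 (ENSMUSG00000035783) on chromosome 19 from 34241090 to 34255590, minus strand. Tagln (ENSMUSG00000032085; chromosome 9, 45929619 to 45936058, minus strand) overlaps Pcsk7 and an antisense transcript on the opposite strand, and its count is uncertain to that extent because the strand setting of the counting is not given. Cnn1 (ENSMUSG00000001349) lies on chromosome 9 from 22099216 to 22109630 and Lmod1 (ENSMUSG00000048096) on chromosome 1 from 135324807 to 135368065, both on the plus strand. All 4 surface genes are on the plus strand: Pdgfrb (ENSMUSG00000024620; chromosome 18, 61045150 to 61085061), Rgs5 (ENSMUSG00000026678; chromosome 1, 169655501 to 169695813), Cspg4 (ENSMUSG00000032911; chromosome 9, 56865033 to 56899870) and Mcam (ENSMUSG00000032135; chromosome 9, 44134469 to 44142727). Mcam overlaps an antisense gene model, and Lmod1 a small nuclear RNA. Longest transcripts range from 1.59 kb for Tagln to 8.12 kb for Cspg4, which also has the highest GC content of the 9, 59.2%, while Rgs5 has the lowest, 41.1%.

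Comparing NF1 with WT, and PKO-NF1 with PKO, asks how mural genes stand when Nf1 is lost from the Schwann cell lineage, with P2ry14 present and absent. These 2 comparisons share no library. Myh11 was lower in both. It had 177 counts, or 8.98 CPM, in NF1 against 536 counts, or 31.6 CPM, in WT (3.52-fold lower, 2.97 to 4.20). In PKO-NF1 it had 266 counts, or 16.2 CPM, against 1059 counts, or 59.5 CPM, in PKO (3.67-fold lower, 3.20 to 4.21). As scaled, both libraries with floxed Nf1 were below both libraries without it. Its log2 ratios after removing length and GC trends were -1.29 and -1.22, against -1.82 and -1.88 as scaled, still past 2-fold in each. The levels were then 25.2 CPM in PKO-NF1, 8.62 in NF1, 55.9 in PKO and 22.6 in WT, so that PKO-NF1 was no longer below WT. Over all genes kept, 6.31% were called lower in NF1 and 9.70% in PKO-NF1 in these comparisons, and 2.60% were lower in both, where 1 of the 9 mural genes was.

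Cnn1 was the other contractile gene called lower, in the NF1 library only. It had 13 counts (0.660 CPM) in NF1 against 99 counts (5.84 CPM) in WT, an 8.86-fold difference with an interval of 4.95 to 17.2. In PKO-NF1 it stood at 10.1 CPM against 10.3 CPM in PKO, a log2 ratio of -0.03 (-0.34 to 0.28). The NF1 value was thus below the other 3 libraries, which spanned 5.84 to 10.3 CPM. The log2 ratios of the comparisons differed by 3.12, or 3.05 with the trends removed, and with 1 library per genotype that difference was not tested. Cnn1 rests on few counts in NF1, and that library is the one with 5.80% of counts from skeletal muscle markers. What part that has in the Cnn1 value was not tested.

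The other contractile genes moved less. Acta2 was at 49.1 CPM in NF1 against 84.0 in WT (1.71-fold lower, 1.58 to 1.86) and at 107 CPM in PKO-NF1 against 123 in PKO (1.15-fold lower, 1.08 to 1.23). With the trends removed its NF1 vs WT log2 ratio was -1.04, past 2-fold. Tagln, at 323 CPM in NF1 against 271 in WT and 628 CPM in PKO-NF1 against 599 in PKO, was within 1.19-fold in each comparison. Lmod1 was at 5.53 CPM in NF1 against 7.91 in WT and at 8.48 CPM in PKO-NF1 against 12.2 in PKO, with log2 ratios of -0.52 both times.

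None of the 4 surface genes was called in either comparison. Pdgfrb was at 74.1 CPM in NF1 against 103 in WT and at 60.8 CPM in PKO-NF1 against 103 in PKO, log2 ratios of -0.48 and -0.76. Cspg4 ran beside it, at 102 CPM in NF1 against 137 in WT and at 85.8 CPM in PKO-NF1 against 135 in PKO. Both of these long, GC-rich genes were near level or turned round once the trends were removed: Pdgfrb to 0.09 and -0.10, and Cspg4 to 0.37 and 0.46, from -0.42 and -0.66. Mcam was at 174 CPM in NF1 against 199 in WT and at 109 CPM in PKO-NF1 against 150 in PKO. Rgs5 was the one surface gene on the higher side both times, at 56.0 CPM in NF1 against 52.4 in WT, an interval that included no difference, and at 57.8 CPM in PKO-NF1 against 43.9 in PKO (1.32-fold, 1.20 to 1.45). With the trends removed its log2 ratios were -0.15 and -0.09, on the lower side.

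In NF1 vs WT the median log2 ratio of the 9 genes was -0.48 and over all genes kept 0.00. In PKO-NF1 vs PKO it was -0.46 and over all genes -0.01. With trends removed these medians became -0.13 and -0.15. In NF1 vs WT 2 of the 9 were called lower, and in PKO-NF1 vs PKO 1 of 9. None was called higher, against 10.4% of all genes in NF1 and 5.20% in PKO-NF1. With trends removed 3 of 9 were lower in NF1 vs WT (4.60% of all genes, and 7.58% higher) and 1 of 9 in PKO-NF1 vs PKO (4.96%, and 2.93% higher), again with none higher. At a 1.5-fold threshold 3 of 9 were lower in each, beside 16.7% of all genes in NF1 vs WT, while PKO-NF1 vs PKO gave 20.1%.

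**Figure D2:**
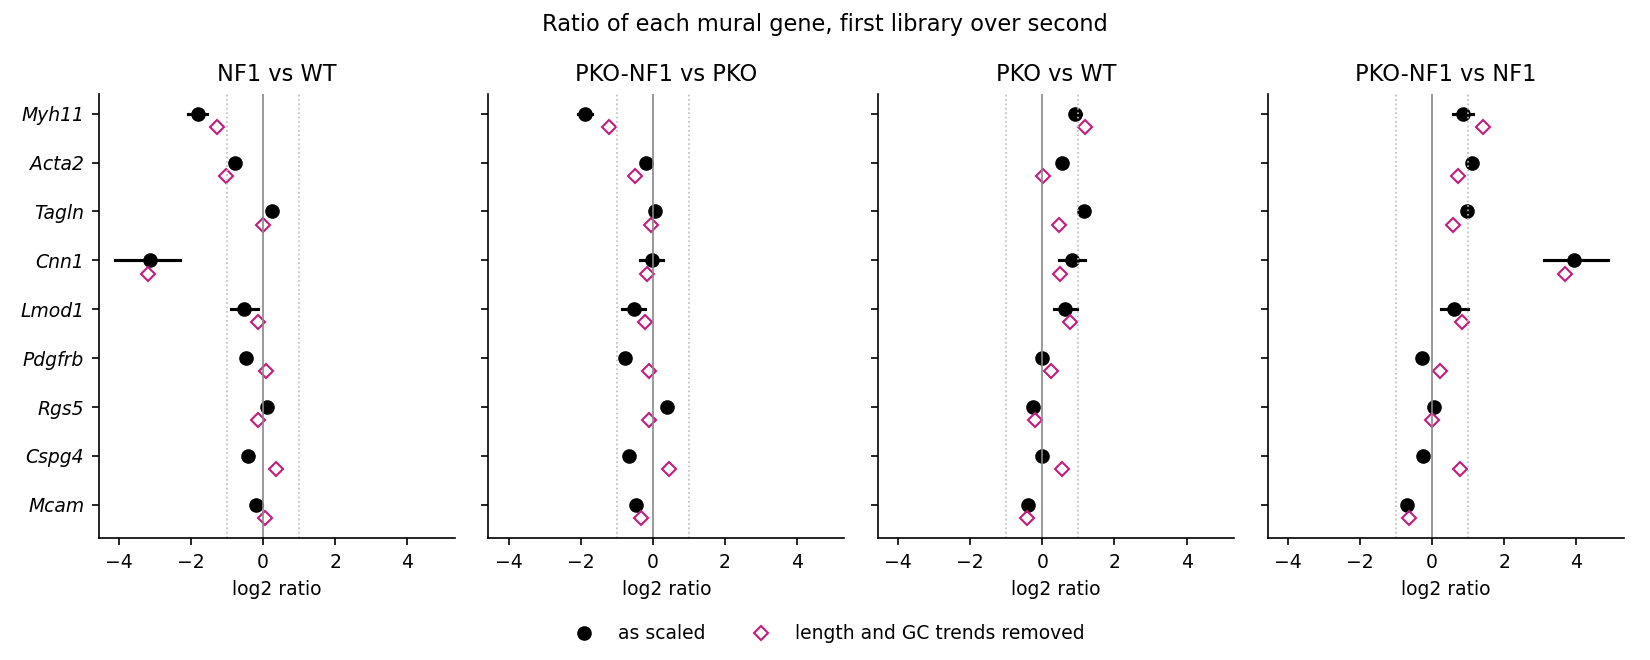
Log2 ratio (first library over second) of each mural gene in 4 comparisons. Filled points with bars are TMM-scaled ratios with exact 95% counting intervals, open diamonds are ratios with length and GC trends removed, and dotted lines mark 2-fold. Myh11 lies left of the 2-fold line in both Nf1 comparisons, and the 5 contractile genes lie right of 0 in both P2ry14 comparisons.

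The comparisons of PKO with WT and of PKO-NF1 with NF1 ask the same of P2ry14 loss. They share no library with each other, though each shares both its libraries with the comparisons above. All 5 contractile genes were on the higher side in both P2RY14-/- libraries, with counting intervals that excluded no difference each time, and few of the ratios reached 2-fold. Tagln was at 599 CPM in PKO against 271 in WT (2.21-fold higher, 2.14 to 2.29) and at 628 CPM in PKO-NF1 against 323 in NF1 (1.95-fold higher, 1.89 to 2.01). Both P2RY14-/- libraries were above both libraries without that allele. With the trends removed, Tagln log2 ratios of 1.15 and 0.96 became 0.47 and 0.58, neither past 2-fold.

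Acta2 was at 123 CPM in PKO against 84.0 in WT (1.47-fold higher, 1.37 to 1.57) and at 107 CPM in PKO-NF1 against 49.1 in NF1 (2.18-fold higher, 2.01 to 2.36). Its trend-removed log2 ratios were 0.03 and 0.73, so the PKO vs WT difference was no longer visible. For Myh11 the 59.5 CPM in PKO against 31.6 in WT made a 1.88-fold difference (1.70 to 2.09), and the 16.2 CPM in PKO-NF1 against 8.98 in NF1 a 1.81-fold difference (1.49 to 2.20). Unlike Acta2 and Tagln, Myh11 went past 2-fold with the trends removed, at log2 ratios of 1.18 and 1.41. Cnn1 was 1.76-fold higher in PKO than in WT (1.37 to 2.27) and 15.3-fold higher in PKO-NF1 than in NF1 (8.68 to 29.3), the second ratio resting on the 13 counts of the NF1 library. Lmod1 was 1.54-fold higher in PKO than in WT (1.24 to 1.93) and 1.53-fold higher in PKO-NF1 than in NF1 (1.18 to 1.99).

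In all, 1 of the 9 was called higher in PKO vs WT (Tagln), beside 10.0% of all genes, and 2 of 9 in PKO-NF1 vs NF1 (Acta2 and Cnn1), beside 7.90%. At a 1.5-fold threshold the counts were 4 and 5, all contractile, beside 16.2% and 20.0% of all genes, and Mcam alone was lower, in PKO-NF1 vs NF1 (24.1% of all genes). None of the 9 was called lower at 2-fold in either, beside 5.22% and 13.8% of all genes. With trends removed 1 of 9 was higher in PKO vs WT (5.07% of all genes, and 5.66% lower) and 2 of 9 in PKO-NF1 vs NF1 (5.82%, and 10.1% lower). As scaled, no mural gene was called higher in both comparisons, against 2.97% of all genes. With trends removed Myh11 was, at log2 ratios of 1.18 and 1.41. The median log2 ratio of the 5 contractile genes was 0.82 in PKO vs WT and 0.96 in PKO-NF1 vs NF1, or 0.50 and 0.82 with the trends removed, and that of the 4 surface genes was -0.14 and -0.27, or 0.02 and 0.12.

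Among the surface genes, Mcam was lower in both P2RY14-/- libraries without reaching 2-fold, at 150 CPM in PKO against 199 in WT (1.33-fold lower, 1.26 to 1.40) and 109 CPM in PKO-NF1 against 174 in NF1 (1.60-fold lower, 1.51 to 1.69). With the trends removed its log2 ratios were -0.43 and -0.64. Pdgfrb was at 103 CPM in both PKO and WT, and at 60.8 CPM in PKO-NF1 against 74.1 in NF1. Rgs5 and Cspg4 stayed within 1.19-fold in both comparisons, although Cspg4 had log2 ratios of 0.54 and 0.79 with the trends removed. Under scaling to library totals the all-gene median was -0.54 in PKO vs WT and -0.17 in PKO-NF1 vs NF1, and neither Tagln in PKO vs WT nor Acta2 in PKO-NF1 vs NF1 was past 2-fold.

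The libraries that differ at both genes, PKO-NF1 and WT, differed in the same genes in a mixed way. Tagln was 2.32-fold higher in PKO-NF1 (2.24 to 2.40) and Myh11 1.95-fold lower (1.68 to 2.27), while with the trends removed their log2 ratios were 0.55 and 0.10, neither past 2-fold. In this comparison 14.7% of all genes were called higher and 17.5% lower, against 1 and 0 of the 9, and at a 1.5-fold threshold 26.6% and 27.9%, against 2 and 4. With trends removed 5.60% were higher and 6.99% lower, against 1 and 0 of the 9. Cspg4 depended most on the trends here: its log2 ratio was -0.68 as scaled and 1.14 with the trends removed.

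Ratios between 2 genes of the same library do not depend on scaling, though the length and GC trends still act on them. Myh11 had 0.152 counts per Acta2 count in PKO-NF1 (0.133 to 0.173) and 0.183 in NF1 (0.155 to 0.215), against 0.484 in PKO (0.449 to 0.521) and 0.376 in WT (0.340 to 0.416). In these raw ratios the libraries with floxed Nf1 lay below the other 2 with no overlap of counting intervals. With trends removed, an alternative chosen after seeing the data, Myh11 per Acta2 was 0.286 in PKO-NF1, 0.178 in NF1, 0.470 in PKO and 0.211 in WT, and PKO-NF1 stood above WT. For Tagln per Acta2 the ratio was 5.87 in PKO-NF1, 6.58 in NF1, 4.87 in PKO and 3.22 in WT, or 6.08, 6.75, 4.47 and 3.30 in those libraries with trends removed. Cnn1 had 0.0134 counts per Acta2 count in NF1 (0.00713 to 0.0231), and between 0.0695 and 0.0941 in the other 3 libraries. Cspg4 per Pdgfrb was nearly even in raw counts, at 1.41 in PKO-NF1, 1.38 in NF1, 1.32 in PKO and 1.33 in WT. That evenness did not hold with trends removed. Cspg4 was then at 179 CPM in PKO-NF1, 94.4 in NF1, 124 in PKO and 78.2 in WT. Pdgfrb was at 93.4, 73.0, 95.4 and 73.5 CPM in those libraries.

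**Figure D3:**
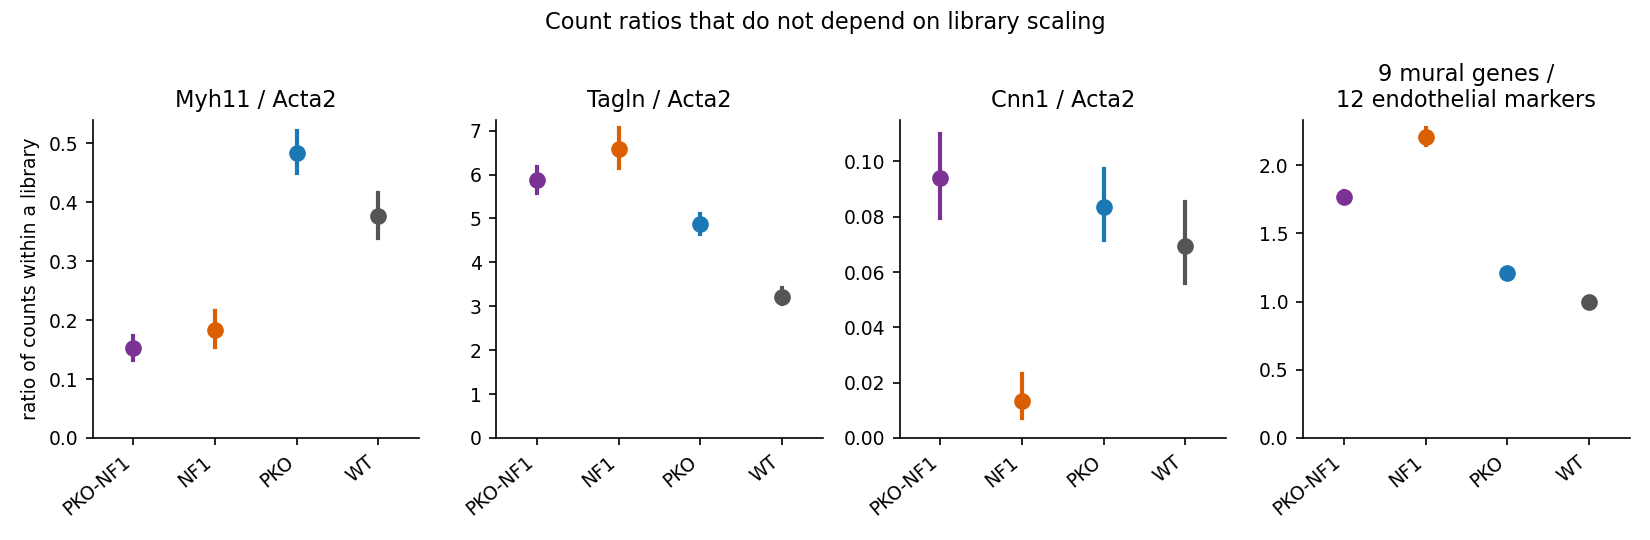
Ratios of counts within each library, with exact 95% counting intervals as bars and linear axes from 0. Ratios are of raw counts, with no trend removed. Myh11 per Acta2 is lower in PKO-NF1 and NF1, at 0.152 and 0.183, than in PKO and WT, at 0.484 and 0.376, Cnn1 per Acta2 is low in NF1 alone, at 0.0134, and Tagln per Acta2 and the 9 genes per 12 endothelial markers are highest in NF1, at 6.58 and 2.21.

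The mural genes were also set against the endothelium they cover. Summed counts of the 9 genes were 1.77 times those of 12 endothelial markers in PKO-NF1 (1.72 to 1.81) and 2.21 times in NF1 (2.15 to 2.27), against 1.21 times in PKO (1.19 to 1.23) and 0.998 times in WT (0.976 to 1.02). Much of these sums was Tagln, whose count is uncertain as given above. It made 10298 of 17756 counts in PKO-NF1, 6363 of 15642 in NF1, 10655 of 21981 in PKO and 4588 of 15116 in WT. The endothelial markers summed to 613 CPM in PKO-NF1, 359 in NF1, 1022 in PKO and 894 in WT. The 4 surface genes alone stood at 1.13 counts per endothelial count in NF1 against 0.550 in WT, and at 0.511 in PKO-NF1 against 0.422 in PKO. By this ratio, which leaves out every contractile gene and not Tagln alone, both P2RY14-/- libraries were below WT. The ratio with Tagln alone left out was not calculated. In bulk tissue, fewer cells of a type and less RNA per cell cannot be told apart.

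An additive model over the 4 libraries (edgeR quasi-likelihood, a term each for Nf1 and P2ry14, 14105 genes) leaves 1 residual degree of freedom, the departure from additivity, so the tests below hold no measure of the spread between animals. At the Nf1 term Myh11 had a fitted log2 change of -1.85 (SE 0.22, edgeR adjusted p = 0.168, unadjusted 0.000333), the smallest p of the 9. No gene was called at an adjusted p under 0.05, while 2944 genes (20.9%) had an unadjusted p under 0.05. Among them were Myh11 and Pdgfrb (-0.62, SE 0.24). With length and GC trends removed the fitted changes were -1.28 for Myh11 (SE 0.21) and -0.03 for Pdgfrb (SE 0.22). The DESeq2 Wald test called 284 genes (2.01%), of the 9 only Myh11, at an adjusted p of 0.000457. With total counts as the scaling edgeR called 1091 genes (7.73%). Over all alternatives the adjusted p of Myh11 at this term ran between 5.66e-06 and 0.817, and the fitted change between -2.34 and -1.28.

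At the P2ry14 term the model called 7 genes (0.0496%) and none of the 9, with 3551 genes (25.2%) at an unadjusted p under 0.05. The fitted log2 changes were 2.17 for Cnn1 (SE 0.79), 1.05 for Tagln (SE 0.37), 0.88 for Myh11 (SE 0.21), 0.84 for Acta2 (SE 0.26) and 0.62 for Lmod1 (SE 0.28), with edgeR adjusted p between 0.142 and 0.235. Fitted changes of the surface genes lay between -0.54 for Mcam and -0.11 for Rgs5. With trends removed the fitted changes were 1.96 for Cnn1, 0.60 for Tagln, 1.37 for Myh11, 0.45 for Acta2 and 0.86 for Lmod1. Those of the surface genes then lay between -0.46 for Mcam and 0.74 for Cspg4. With DESeq2, which called 720 genes (5.10%), Cnn1 had an adjusted p of 0.0339 and Tagln of 0.0448. With total counts edgeR called 2627 genes (18.6%). Over the alternatives those of Cnn1 ran between 0.00138 and 0.807 and those of Tagln between 0.0448 and 0.830.

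Other genes of the contractile apparatus were read beside the 5. Of 20 such genes, 4 were called higher and 1 lower in NF1 vs WT, and 0 higher and 2 lower in PKO-NF1 vs PKO, with medians of -0.23 and -0.21. Over all genes 10.4% were higher and 6.31% lower in NF1 vs WT, and 5.20% higher and 9.70% lower in PKO-NF1 vs PKO, and the counts of the lists that follow stand beside the same shares. With trends removed the counts were 4 higher and 1 lower, and 0 and 0. The 4 higher in NF1 were Tpm1 and Tpm2, the tropomyosins (19.7-fold and 26.6-fold), Synpo2 (101 CPM in NF1 against 20.2 in WT) and Pdlim7 (2.72-fold), all of which skeletal muscle also expresses. Kcnmb1, the smooth muscle subunit of the large-conductance potassium channel, was the one lower, at 0.254 CPM in NF1 against 1.12 in WT (4.42-fold, 1.60 to 15.1), near the detection limit. In PKO-NF1 vs PKO the lower genes were smoothelin, Smtn, a marker of contractile smooth muscle (86.9 CPM in PKO-NF1 against 245 in PKO, 2.81-fold, 2.65 to 2.99), and Synpo2 (2.21-fold, 1.83 to 2.67, or a log2 ratio of -0.70 with trends removed). Smtn was at 149 CPM in NF1 against 289 in WT, 1.94-fold lower (1.85 to 2.03). Its trend-removed log2 ratios were -0.40 in NF1 vs WT, while PKO-NF1 vs PKO gave -0.96.

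In PKO vs WT 3 of the 20 were called higher, namely the myosin light chains Myl6 (2.92-fold) and Myl9 (2.17-fold) and the myosin phosphatase inhibitor Ppp1r14a (2.42-fold), and none lower, beside 10.0% and 5.22% of all genes. With trends removed Myl6 alone kept its call, and Ppp1r14a had a log2 ratio of 0.54. In PKO-NF1 vs NF1 4 were higher, Myl6 (2.15-fold), Myl9 (2.24-fold), the enteric and vascular actin Actg2 (2.98-fold) and Kcnmb1 (5.05-fold, 1.85 to 17.1), and 5 lower, 4 of which were the genes high in NF1 and the fifth Ppp1r12a, beside 7.90% and 13.8% of all genes. Myl9, the regulatory light chain of smooth muscle myosin, was at 278 CPM in PKO against 128 in WT and 257 CPM in PKO-NF1 against 115 in NF1. It was no longer past 2-fold with the trends removed, at log2 ratios of 0.32 and 0.88.

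Of 13 transcription factors that govern these genes, 12 passed the filter, and Myocd, the gene of myocardin, did not. In NF1 vs WT 1 of the 12 was called higher and 2 lower, and in PKO-NF1 vs PKO 0 higher and 4 lower (medians of -0.26 and -0.63). In all, 6.31% of genes were lower in NF1 vs WT, 9.70% in PKO-NF1 vs PKO. Srf was at 45.0 CPM in NF1 against 42.2 in WT, an interval that included no difference, and lower in PKO-NF1, at 17.1 CPM against 42.2 in PKO (2.46-fold, 2.14 to 2.83). Mkl2, a myocardin-related cofactor, was also lower in PKO-NF1 than in PKO (2.10-fold, 1.85 to 2.40), as were Gata6 and Heyl, the last a Notch target of mural cells (2.52-fold, 1.87 to 3.41). With trends removed only Gata6 of these 4 kept its call. Mef2c, a factor that skeletal muscle expresses strongly, was the higher gene in NF1 (14.8-fold over WT, 13.5 to 16.3). The lower genes in NF1 were Hey2, a Notch target (2.18-fold, 1.30 to 3.74), and Klf4, which opposes the contractile programme, at 41.6 CPM in NF1 against 89.4 in WT (2.15-fold lower, 1.97 to 2.34). With trends removed Klf4 was no longer called, at a log2 ratio of -0.82, and Hey2 was. In PKO vs WT 0 of the 12 were called in either direction, beside 10.0% of all genes higher and 5.22% lower. In PKO-NF1 vs NF1 1 was higher, Hey2, and 5 lower, beside 7.90% and 13.8%. The lower genes were Srf (2.62-fold), Mkl2 (2.29-fold), Tbx2, Tbx18 and Mef2c. With trends removed 1 was higher and 2 lower there, and Srf and Mkl2 were not called.

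Of 20 further pericyte genes, 1 was called higher and 2 lower in NF1 vs WT (median -0.28), and 0 higher and 2 lower in PKO-NF1 vs PKO (median -0.27), where 9.70% of all genes were lower, about the same share. With trends removed the counts were 1 higher and 0 lower, and 0 higher and 2 lower. The lower genes were the same 2 in both. Notch3, the Notch receptor of mural cells, was at 13.2 CPM in NF1 against 33.0 in WT (2.50-fold, 2.15 to 2.91) and at 6.35 CPM in PKO-NF1 against 38.2 in PKO (6.03-fold, 4.90 to 7.48). Gpr4, a proton-sensing receptor, was at 2.84 CPM in NF1 against 6.49 in WT (2.28-fold, 1.64 to 3.21) and at 1.65 CPM in PKO-NF1 against 6.69 in PKO (4.06-fold, 2.66 to 6.42). With the trends removed, both stayed past 2-fold in PKO-NF1 vs PKO and neither in NF1 vs WT. Abcc9, a subunit of the vascular potassium channel that skeletal muscle also has, was the higher gene in NF1 (2.24-fold, 1.95 to 2.57), while Kcnj8, its pore subunit, was called only in PKO, at 17.4 CPM against 6.73 in WT (2.59-fold higher, 2.08 to 3.24). In PKO vs WT 2 of the 20 were called higher, Kcnj8 and Higd1b, and 0 lower, beside 10.0% and 5.22% of all genes. In PKO-NF1 vs NF1 2 were higher, Higd1b and Ndufa4l2, and 2 lower, Notch3 (2.08-fold) and Abcc9 (2.62-fold), beside 7.90% and 13.8%. Higd1b was 3.43-fold higher in PKO than in WT (2.62 to 4.54) and 2.07-fold higher in PKO-NF1 than in NF1 (1.66 to 2.60). With trends removed Higd1b lost both calls, and Notch3 and Abcc9 lost theirs in PKO-NF1 vs NF1. Kcnj8 and Ndufa4l2 (2.33-fold, 1.86 to 2.94) kept theirs. Vtn, vitronectin, was within 1.61-fold in both Nf1 comparisons, at 40.2 CPM in NF1 against 64.6 in WT and 76.1 CPM in PKO-NF1 against 90.2 in PKO.

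Of 25 genes for the signals that recruit mural cells, 5 were called lower in NF1 vs WT and none higher, and 3 lower and 1 higher in PKO-NF1 vs PKO, with medians of -0.52 and -0.20. With trends removed 1 was lower in NF1 vs WT, Angpt2, and none was called in PKO-NF1 vs PKO. Over all genes 6.31% and 9.70% were lower as scaled. Pdgfb, the ligand of Pdgfrb, was not called in either, at 18.6 CPM in NF1 against 31.8 in WT and 15.7 CPM in PKO-NF1 against 31.1 in PKO (1.99-fold lower, 1.71 to 2.31). Lower in both were endoglin, Eng, a co-receptor for TGF-beta ligands on endothelium (2.41-fold and 2.47-fold), and the laminin chain Lama5 (2.01-fold and 2.41-fold). Lama5 had trend-removed log2 ratios of -0.21 and 0.00, and Eng of -0.80 and -0.88. Acvrl1, the partner receptor of endoglin, was at 33.3 CPM in NF1 against 74.5 in WT (2.24-fold lower, 2.03 to 2.46, trend-removed log2 ratio -0.68), and Angpt2, an angiopoietin that loosens vessel walls, was at 8.02 CPM in NF1 against 19.9 in WT (2.48-fold lower, 2.05 to 3.02). Dll4, an endothelial Notch ligand, was at 5.31 CPM in PKO-NF1 against 13.9 in PKO (2.63-fold lower, 2.05 to 3.39, trend-removed log2 ratio -0.98), and the endothelin receptor Ednrb was the higher one, at 48.4 CPM in PKO-NF1 against 23.2 in PKO (trend-removed log2 ratio 0.75). Lama4, a chain of the laminin that Mcam binds, was within 1.37-fold in both.

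Markers of other cells in the nerve differed between the same libraries. Of the 12 endothelial markers, 8 were called lower in NF1 than in WT, 5 lower in PKO-NF1 than in PKO, and none higher, beside 6.31% and 9.70% of all genes lower. With trends removed 8 and 2 were lower. Fibroblast markers matter because nerve fibroblasts can carry Pdgfrb. They summed to 14372 CPM in PKO-NF1, 8435 in NF1, 11672 in PKO and 8584 in WT, with none of 11 called in either Nf1 comparison. Their median log2 ratio was 0.51 in PKO vs WT and 0.65 in PKO-NF1 vs NF1, or 0.56 and 0.75 with trends removed. In each of these 1 of 11 was called higher and none lower, beside 10.0% and 7.90% of all genes higher. With trends removed 0 and 2 were higher, beside 5.07% and 5.82%. Medians of the 5 contractile genes there were 0.82 and 0.96, or 0.50 and 0.82 with trends removed. Adipocyte markers summed to 12306 CPM in PKO-NF1, 3483 in NF1, 16431 in PKO and 6217 in WT. As with the summed contractile genes and the summed fibroblast markers, both P2RY14-/- libraries were above both others. In PKO vs WT, Adipoq, Cfd and Fabp4 were on the higher side and Plin1, Plin4 and Lep on the lower. The median log2 ratio of the 7 adipocyte markers there was 0.40, or -0.02 with trends removed. In PKO-NF1 vs NF1 their median was 2.01, or 1.65 with trends removed. Of the 7, 5 were called higher in that comparison both ways, and 0 lower, beside 7.90% and 5.82% of all genes higher. In NF1 vs WT the median was -1.32, or -1.51 with trends removed, and in PKO-NF1 vs PKO -0.40, or -0.42. The contractile genes summed to 770 CPM in PKO-NF1, 387 in NF1, 804 in PKO and 400 in WT. Tagln alone made 628, 323, 599 and 271 CPM of these sums. Myh11 did not follow them, at 16.2 CPM in PKO-NF1 against 31.6 in WT. Perineurial markers summed to between 663 and 1000 CPM and Schwann cell markers to 18563 CPM in PKO-NF1, 8082 in NF1, 33206 in PKO and 23084 in WT. No marker of these cell types was at 0 in any library. The part that fat, fibroblasts, skeletal muscle or sex has in the mural values was not tested.

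**Figure D4:**
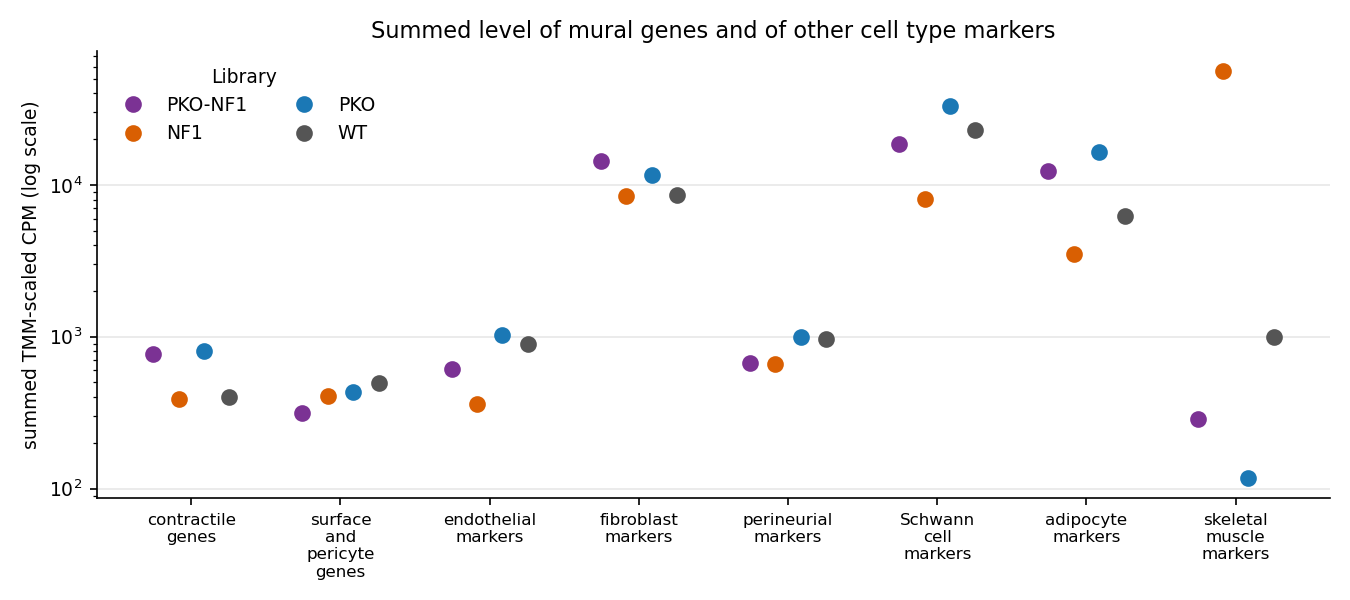
Summed TMM-scaled CPM (log axis) of the 5 contractile genes, the 4 surface genes and 6 marker lists of other cells, 1 point per library in the order PKO-NF1, NF1, PKO, WT. Skeletal muscle markers stand at 56098 CPM in NF1, against 118 to 1002 CPM in the other libraries. Adipocyte, fibroblast and contractile sums are higher in PKO-NF1 and PKO than in NF1 and WT.

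The pattern of each gene over the 4 libraries was compared by the distance between log2 CPM profiles after subtracting each gene's mean, in log2 units. Within the 9, as scaled and with no trend removed, Pdgfrb and Cspg4 were closest (distance 0.08), followed by Acta2 and Lmod1 (0.38). Cnn1 and Mcam were farthest apart. Among 11430 genes with a mean of at least 5 CPM, those nearest to Myh11 included Hcar1, Vat1l, Cadm3 and Cd248, at distances of 0.39 to 0.44. Hcar1, the nearest at 0.39, was at 5.98 CPM in PKO-NF1, 4.72 in NF1, 25.7 in PKO and 12.6 in WT. Cd248, or endosialin, a surface protein of pericytes and fibroblasts, was the farthest of those named, at 0.44. Its levels were 52.5 CPM in PKO-NF1, 26.9 in NF1, 160 in PKO and 66.9 in WT. The genes nearest to Pdgfrb, Rab11b, Dhrsx, Scarb1, Wtip and Ahr, lay at distances of 0.05 to 0.06, closer than Cspg4. With 4 points per profile, such likeness describes these libraries only.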

How the data were processed

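RNA-seq libraries of total RNA (TruSeq, per the labels' protocols) were quantified by the authors as raw read counts per gene symbol, the unit of the deposited table. FastQC 0.11.7, HISAT2 2.0.5, featureCounts 1.5.2 and mm10 are named in the submitters' processing notes, and neither annotation nor strand setting is stated in those sources. No column was left unmapped.

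Counts were scaled with edgeR 4.0.16 (TMM, R 4.3.3) to CPM over all genes, and 14700 genes with at least 1 CPM in at least 1 library were compared. Ratios carry exact conditional Clopper-Pearson 95% intervals, which cover counting error only. The additive model used edgeR's quasi-likelihood test with Benjamini-Hochberg adjustment on 14105 genes with at least 1 CPM in at least 2 libraries. DESeq2 1.42.0 was an alternative. Length and GC trends were fitted per library as splines with 4 degrees of freedom, from the longest GENCODE M21 transcript. Profile distances used log2(CPM + 0.5). The ratio calls and the additive model, but not the trend removal, were tested on simulated data. For the additive model the simulated counts had less spread than was fitted to these libraries and no departure from additivity. That test therefore does not show how the model performs on these libraries. Other settings tried were other scalings, filters and thresholds, and leaving out libraries.

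The 9 genes and all lists were chosen with earlier results of these data known. From each list the text names genes called the same way in both Nf1 comparisons, the strongest in each direction by the interval bound nearest no change, and the 3 most abundant where described. Genes named besides these, mainly those called in the P2ry14 comparisons, were chosen after their values were seen. The 5 genes nearest Myh11 and Pdgfrb had a mean of at least 5 CPM, and 1 of them is not reported here.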

Additional observations from a re-analysis of the deposited data

How the results depend on the processing

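No paired analysis was possible because each genotype had 1 library. No log2 ratio of the 9 genes that was called changed direction under any planned setting, and 9 calls over all settings were lost. The median log2 ratio of the 9 genes became -0.70 in NF1 vs WT, 0.09 in PKO vs WT and -0.28 in PKO-NF1 vs WT with total counts only. With length and GC trends removed it became -0.13 in NF1 vs WT, -0.15 in PKO-NF1 vs PKO and 0.29 in PKO-NF1 vs WT. Total counts left 0 genes called higher in PKO vs WT, 1 higher in PKO-NF1 vs NF1, and 0 higher and 4 lower in PKO-NF1 vs WT. A 1.5-fold threshold gave 3 lower in PKO-NF1 vs PKO, 4 higher in PKO vs WT, 5 higher and 1 lower in PKO-NF1 vs NF1, and 2 higher and 4 lower in PKO-NF1 vs WT. Scaling to endothelial markers, chosen after seeing the data, gave 3 higher and 1 lower in NF1 vs WT (median 0.83). Myh11 was at -0.50 in NF1 vs WT and no longer called. The same scaling gave 1 higher and 1 lower in PKO-NF1 vs PKO (median 0.28), the lower one Myh11 at -1.14. It gave 0 higher in PKO vs WT, and 1 higher and 3 lower in PKO-NF1 vs NF1 (median -0.15). In the additive model the Nf1 term called 1 of the 9 with no filter, 2 with total counts only and 1 with DESeq2, and over all genes 0 as reported, 46 with no filter, 1091 with total counts and 284 with DESeq2. The P2ry14 term called 1 of the 9 with total counts only, 2 with DESeq2 and 0 to 1 when each library was left out of a single-term model, the 1 without the WT library. Over all genes it called 7 as reported, 108 with no filter, 2627 with total counts and 720 with DESeq2. Single-term models without 1 library called 0 to 84 genes for Nf1 and 0 to 364 for P2ry14. The cause of these differences was not tested. Depth limits Cnn1 in NF1, at 13 counts, and Kcnmb1 most.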
